A study of Rattus norvegicus with 20 samples.

Results

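Lipid ester hydrolases and carboxylesterases were followed as 10 genes of rat liver, Nceh1, Aig1, Pnpla2, Mgll, Lipc, Aadac, Ces1c, Ces1d, Ces1e and Ces2c, of 14217 genes that a probe set names on the array. The genes were found by their symbol in the platform annotation, which gave 15 probe sets of 31042. Nceh1 and Aig1 were chosen by their low log2 values in the D3T and OLT arrays against control, so that their values in those comparisons are given as a description and without a test. The other 8 were added as genes of the same enzyme classes.

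The study fed 20 female Sprague Dawley rats, all on the same Harlan Teklad mash diet, for 24 days, with 5 rats to a group and 1 array to a rat. The mash of the BNF group held 1650 mg per kg of 5,6-benzoflavone, which binds and activates the aryl hydrocarbon receptor. That of the D3T group held 600 mg per kg of 3H-1,2-dithiole-3-thione. That of the OLT group held 500 mg per kg of oltipraz, which is D3T with methyl and pyrazinyl substituents on its ring, and the control group ate mash with no addition. The ages of the rats are not given in the sources used here. All values are log2 probe set summaries made by the authors, so that a difference of 1 is a 2-fold change.

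Stored fat and cholesterol esters are broken down by hydrolases that sit on lipid droplets, in the endoplasmic reticulum or outside the cell. Adipose triglyceride lipase starts the breakdown of triacylglycerol, and monoacylglycerol lipase ends it. In the lumen of the hepatocyte's endoplasmic reticulum carboxylesterases and arylacetamide deacetylase cleave ester and amide bonds of lipids and of many drugs, and some take part in moving stored fat towards lipoprotein secretion.

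All 10 genes had at least 1 probe set with a log2 value above 4 in 5 or more arrays, the level used to keep a probe set for testing, and 13 of the 15 probe sets passed it. The 2 that did not were a second Aig1 probe set, between 2.39 and 2.82 on every array, and a second Ces1c probe set, between 3.72 and 5.41. Such values lie near the background that GCRMA leaves. The hepatocyte markers bore out the labelled tissue, with albumin between 15.86 and 16.46 on all arrays. Of 11 adipocyte markers only 2 passed the filter, and adiponectin (Adipoq) and perilipin 1 (Plin1) stayed between 2.14 and 2.30. Among the D3T and OLT arrays, 2 resembled the other dithiolethione group more than their own. The array labelled D3T 5 had a mean correlation across kept probe sets of 0.968 with its own group and 0.979 with OLT, and the array labelled OLT 1 had 0.963 with its own group and 0.966 with D3T. Whether the labels of these 2 arrays are exchanged was not tested. The labels were kept, and D3T and OLT differences from control of the 10 genes, and those called among their partner genes, are also given without both arrays. The 2 arrays were picked for their likeness to the opposite group. Leaving them out can therefore move these differences and narrow the spread by construction, and a call gained that way is a description.

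Sequence before the start sites is shown for the Ces1 genes, which rose together under D3T, and for Mgll, which fell under BNF. All 10 genes had a window in the RefSeq promoter table. Ces1e, Ces1d and Ces1c lie next to each other on chromosome 19 of the rat, in that order, between Ces1f and Ces1a. A search of the 250 bases before each RefSeq start (assembly GRCr8) for runs of at least 9 letters present on the same strand in all 3 genes found a single run, GTAAACTCT. It is in capitals below, with up to 25 bases on either side.
Ces1e, chr19:30006130-30006172, plus strand: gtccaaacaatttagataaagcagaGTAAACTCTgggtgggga
Ces1d, chr19:30046319-30046377, plus strand: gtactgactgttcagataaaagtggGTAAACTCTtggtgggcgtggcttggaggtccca
Ces1c, chr19:30099277-30099335, plus strand: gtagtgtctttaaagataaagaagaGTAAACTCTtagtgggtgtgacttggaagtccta
Counted from the start, the run began at position -18 in Ces1e, -150 in Ces1d and -145 in Ces1c. On either strand, 66 of 33469 rat promoters held it in the 250 bases before the start (0.197%), and those of Ces1f and Ces1a did not. It was looked for after the values of these genes were known, and the 3 genes are copies of one another, so that the shared letters are a description.

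The core of the site that the aryl hydrocarbon receptor binds, GCGTG on either strand, was searched in the 250 bases before each start. It was found before Mgll and Ces1d among the 10 genes, and before 25.9% of all starts. Mgll, which fell in BNF livers, held it at 2 places, in capitals in the stretches below, and the second, on the reverse strand, reads CACGC here.
Mgll, chr4:122749186-122749223, plus strand: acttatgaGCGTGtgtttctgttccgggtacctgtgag
Mgll, chr4:122749270-122749324, plus strand: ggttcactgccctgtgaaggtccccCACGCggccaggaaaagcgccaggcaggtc
The antioxidant response element core, TGACNNNGC, to which Nrf2 binds, was in these 250 bases before none of the 10 genes and before 10.1% of all starts. Both cores were searched after the values were known, and neither match nor absence says whether a factor binds.

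Nceh1, neutral cholesterol ester hydrolase 1, an enzyme of the endoplasmic reticulum and a relative of Aadac, had the largest difference from control of the 10 genes under both dithiolethiones. Its log2 values were 5.11, 3.17, 3.86, 5.38 and 5.84 in D3T livers and 5.28, 4.25, 5.64, 5.16 and 6.13 in OLT livers, against 9.42, 9.25, 8.69, 9.29 and 9.58 in control livers. Every dithiolethione array lay below every control array. The difference from control was -4.57 for D3T and -3.95 for OLT. Some D3T values lie near background, so that the size of the D3T difference rests on the background level. Without the arrays labelled D3T 5 and OLT 1 the differences were -4.87 and -3.95.

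Aig1, androgen-induced gene 1, a membrane hydrolase that cleaves fatty acid esters of hydroxy fatty acids, stood at 3.14, 3.05, 4.36, 2.92 and 5.06 in D3T livers and 3.22, 4.27, 5.34, 5.46 and 3.55 in OLT livers. The control livers read 7.54, 7.76, 7.47, 8.16 and 7.19. Again no dithiolethione array reached the control range. The differences were -3.92 for D3T and -3.26 for OLT, and -4.25 and -2.97 without the arrays labelled D3T 5 and OLT 1. Some D3T and OLT values lie near background, so that the size of both differences rests on the background level. D3T 5 was the highest D3T array and OLT 1 the lowest OLT array for this gene. Of all kept probe sets, 9.77% had groups that did not overlap between D3T and control and 6.59% between OLT and control. Because both genes were selected on this difference, nothing is read from it.

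BNF was a comparison that the choice of Nceh1 and Aig1 did not use, although it shares the control arrays. Nceh1 read 8.22, 8.45, 8.83, 7.47 and 5.35 in BNF livers, and the array labelled BNF 5 was the lowest by over 2 units. The groups overlapped by 1 BNF array above the lowest control. The difference of -1.58 (SE 0.57, 95% interval -2.77 to -0.39) was not called by limma (adjusted p = 0.145), and it was -1.01 without BNF 5. Aig1 read 6.64, 6.07, 6.21, 6.32 and 6.71 in BNF livers, and every one of these lay below the control arrays. The difference of -1.24 (SE 0.43, 95% interval -2.14 to -0.33) was not called with all arrays (adjusted p = 0.133). Leaving D3T 5 and OLT 1 out of the common variance made it a call (adjusted p = 0.0485), as did a fit of BNF and control arrays alone (adjusted p = 0.00732). With array weights both Aig1 (adjusted p = 0.00340) and Nceh1 (adjusted p = 0.0382) were called lower.

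**Figure D1:**
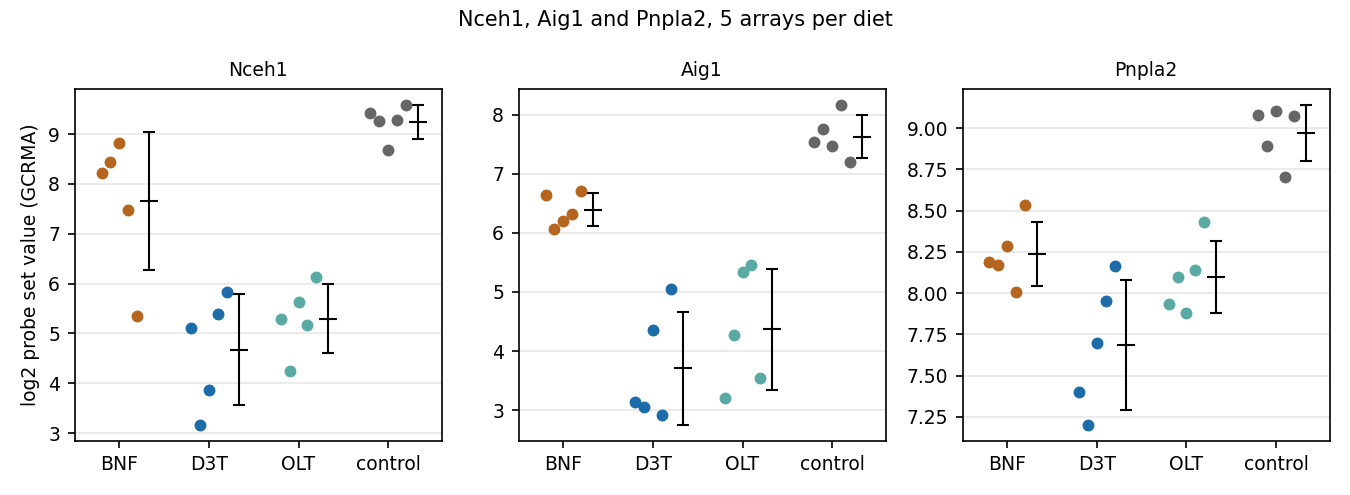
Log2 probe set values of Nceh1, Aig1 and Pnpla2 by diet, 1 point per array and the mean with its SD beside the points (n = 5 arrays per diet). The D3T and OLT arrays lie below all control arrays for each of the 3 genes, and the lowest BNF array for Nceh1 reads 5.35.

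The genes whose values were nearest to those of Nceh1 and Aig1 were found by the root mean square difference over the 20 arrays, each value taken as its difference from the control mean. For Nceh1 the nearest gene was Spsb4, a SOCS-box protein, at 1.07, followed by Aig1 at 1.21 and the steroid hydroxylase Cyp17a1 at 1.22. For Aig1 the nearest were the pantetheinase Vnn1 at 0.803, Spsb4 at 0.899 and Homer1, a scaffold protein, at 1.05. Spsb4 averaged 8.48 ± 0.33 in BNF livers, 5.63 ± 1.27 in D3T livers and 6.93 ± 0.66 in OLT livers, against 9.61 ± 0.18 in control livers (SD, n = 5 each). Vnn1 averaged 8.21 ± 0.88, 4.66 ± 0.09 and 5.21 ± 0.78 in BNF, D3T and OLT livers, against 8.88 ± 0.15 in control livers (SD, n = 5 each). These genes were picked for their likeness over all 20 arrays, BNF included, so that their BNF means are a description.

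Pnpla2, adipose triglyceride lipase, fell in all 3 diets. It read 8.19, 8.17, 8.29, 8.01 and 8.54 in BNF livers, 7.40, 7.20, 7.70, 7.96 and 8.17 in D3T livers and 7.93, 8.10, 7.88, 8.14 and 8.43 in OLT livers. The control livers read 9.08, 8.89, 9.10, 8.70 and 9.07. No array of the 3 supplemented diets reached the lowest control array. By limma the differences were -1.28 for D3T (SE 0.17, adjusted p = 6.74e-05), -0.87 for OLT (SE 0.17, adjusted p = 0.00372) and -0.73 for BNF (SE 0.17, adjusted p = 0.0161), in each case lower in 5 of 5 livers. These correspond to 2.43-fold, 1.83-fold and 1.66-fold lower levels. Without the arrays labelled D3T 5 and OLT 1 the D3T difference was -1.40 and the OLT difference -0.83. The 3 comparisons share their control arrays, and in a whole-liver sample fewer cells of a type and less RNA per cell cannot be told apart.

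Mgll, monoacylglycerol lipase, which also breaks down the endocannabinoid 2-arachidonoylglycerol, fell in BNF livers and was not called in D3T or OLT livers. The probe set with the highest mean read 8.37, 7.88, 9.10, 8.09 and 9.02 in BNF livers, against 9.48, 10.20, 9.91, 9.77 and 10.28 in control livers. All 5 BNF arrays lay below all 5 control arrays. The difference was -1.44 (SE 0.29, adjusted p = 0.00784), a 2.70-fold lower level. For D3T it was -0.47 (95% interval -1.07 to 0.14, adjusted p = 0.328) and for OLT 0.24 (95% interval -0.36 to 0.85, adjusted p = 0.647). They were -0.55 for D3T and 0.33 for OLT without D3T 5 and OLT 1, neither called. The difference between BNF and the other supplemented diets was not tested.

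Of the 4 Mgll probe sets 3 agreed in direction in BNF livers. The second read 7.27, 7.13, 7.73, 7.07 and 7.45 in BNF livers, against 8.91, 8.49, 8.35, 8.46 and 8.42 in control livers, a difference of -1.20 (SE 0.15, adjusted p = 1.01e-04). The third gave -1.67 (SE 0.33, adjusted p = 0.00703), and neither had overlapping groups. The fourth, between 4.07 and 4.78 on every array, lay near background and showed no difference (0.00, adjusted p = 0.998). Under D3T the highest and the third probe set gave -0.47 and -0.42, and the second gave 0.15; none was called.

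**Figure D2:**
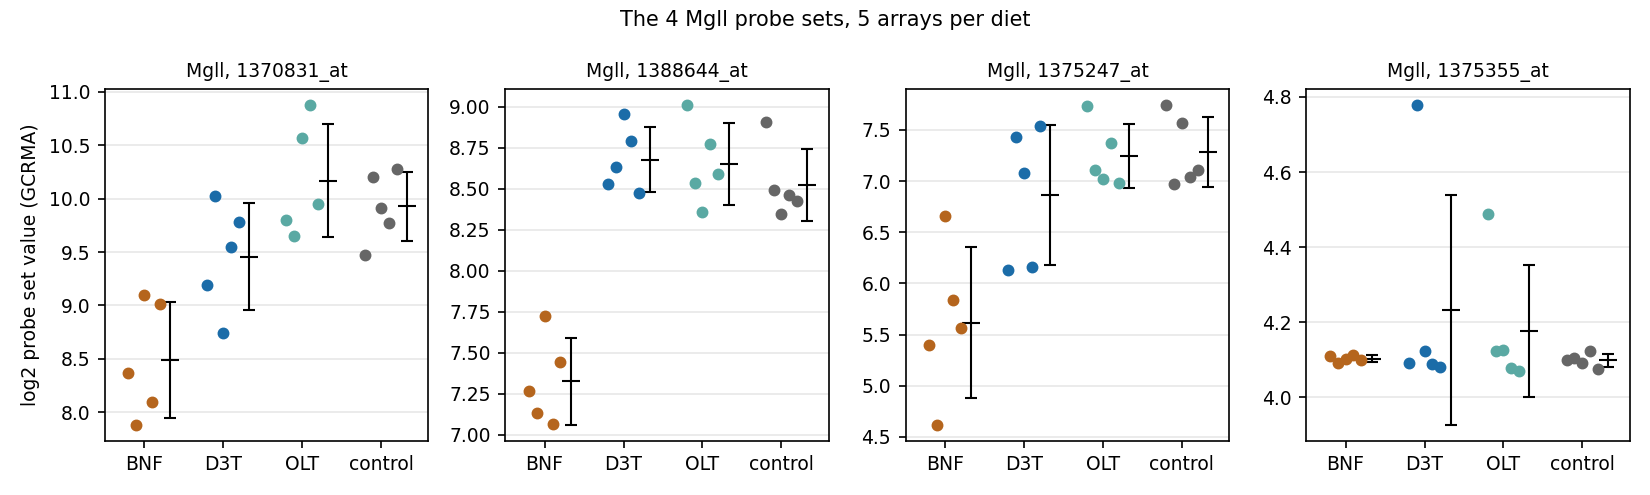
Log2 values of the 4 Mgll probe sets by diet, 1 point per array, with the mean and its SD beside the points (n = 5 arrays per diet). In the first 3 panels every BNF array lies below every control array, and the fourth probe set stays near 4.1 on most arrays.

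Lipc, hepatic lipase, which acts on lipoproteins at the surface of liver sinusoids, was not called in any diet. It averaged 12.30 ± 0.24 in BNF livers, 12.19 ± 0.06 in D3T livers and 12.31 ± 0.28 in OLT livers, against 12.38 ± 0.15 in control livers (SD, n = 5 each). The 95% intervals of the difference from control were -0.34 to 0.19 for BNF, -0.45 to 0.08 for D3T and -0.33 to 0.20 for OLT, so that a 2-fold change in either direction lay outside each. Leaving out D3T 5 and OLT 1 gave -0.19 for D3T and 0.03 for OLT, neither called.

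The carboxylesterases of the set went the other way from Pnpla2 under D3T: all 4 of them were called higher. Ces2c, a carboxylesterase of liver and intestine, read 9.47, 9.19, 9.95, 9.66 and 9.54 in D3T livers, against 9.13, 8.51, 8.18, 8.75 and 8.89 in control livers. The groups did not overlap, and the difference was 0.87 (SE 0.19, adjusted p = 0.00537), a 1.83-fold higher level. In OLT livers it read 8.65, 8.94, 9.08, 9.26 and 9.08, within or just above the control range, with a difference of 0.31 that was not called (95% interval -0.08 to 0.70, adjusted p = 0.338). Without D3T 5 and OLT 1 the D3T difference was 0.88 and still called, and the OLT difference 0.40 and not called. Under BNF Ces2c fell. Its values of 7.60, 7.25, 7.91, 7.86 and 8.09 lay below every control array, with a difference of -0.95 (SE 0.19, adjusted p = 0.00724).

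The 3 neighbouring Ces1 genes rose together in D3T livers. Ces1e, known as egasyn, which holds beta-glucuronidase in the endoplasmic reticulum, read 11.43, 11.32, 11.34, 11.30 and 10.93 in D3T livers, against 10.80, 10.49, 10.62, 10.45 and 10.88 in control livers. Its groups did not overlap, and the difference was 0.62 (SE 0.17, adjusted p = 0.0215). Ces1d, the rodent triacylglycerol hydrolase of the endoplasmic reticulum, read 13.41, 13.31, 13.34, 13.65 and 12.94 in D3T livers, against 12.47, 12.44, 12.53, 12.84 and 13.10 in control livers. The lowest D3T array, labelled D3T 5, lay below the highest control array, and the difference was 0.66 (SE 0.19, adjusted p = 0.0307). Ces1c, an esterase that rodents secrete into plasma, read 13.85, 13.99, 14.18, 13.61 and 13.46 in D3T livers, against 13.20, 13.09, 13.59, 13.01 and 13.55 in control livers. Only D3T 5 fell within the control range, and the difference was 0.53 (SE 0.14, adjusted p = 0.0209). These genes are close copies of one another, and whether probes of one bind RNA of the next was not tested.

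In OLT livers none of the 3 Ces1 genes was called. Ces1e read 11.37, 10.67, 10.41, 10.83 and 10.91, Ces1d read 13.43, 12.84, 12.86, 13.01 and 13.14, and Ces1c read 13.80, 13.68, 13.45, 13.71 and 13.44. The array labelled OLT 1 was the highest OLT array for all 3, and D3T 5 was the lowest D3T array for all 3. The differences from control were 0.19 (95% interval -0.16 to 0.54), 0.39 (-0.01 to 0.79) and 0.33 (0.03 to 0.63) for Ces1e, Ces1d and Ces1c, with adjusted p = 0.519, 0.243 and 0.180. Without OLT 1 and D3T 5 the OLT differences were 0.06, 0.29 and 0.28, and the D3T differences grew to 0.70, 0.76 and 0.62. Both shifts follow from leaving out the highest OLT array and the lowest D3T array. Under BNF the differences of Ces1e, Ces1d and Ces1c were -0.24, -0.33 and -0.06, and none was called (adjusted p from 0.452 to 0.953).

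The D3T calls of the Ces1 genes stand close to the threshold. The call of Ces1d ended on leaving out control 1, control 2, control 3 or any D3T array other than D3T 5 (adjusted p from 0.0566 to 0.0803), and with no filter (adjusted p = 0.0703). That of Ces1c ended without control 2, control 4, D3T 2 or D3T 3 (adjusted p from 0.0556 to 0.0689) and in a fit of D3T and control arrays alone (adjusted p = 0.0640). That of Ces1e ended without control 2, control 4 or D3T 3 (adjusted p from 0.0531 to 0.0574), and with no filter (adjusted p = 0.0514). The number of called carboxylesterases was then 1 without control 2 or D3T 3 and 2 without control 4 or D3T 2. Ces2c kept its call whichever array was left out, with a largest adjusted p of 0.0205. In all 20 of these fits the differences of the 4 genes in D3T livers stayed above 0.

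Aadac, arylacetamide deacetylase, read 11.05, 10.80, 10.73, 11.21 and 10.68 in D3T livers, against 10.73, 10.27, 10.09, 10.28 and 10.38 in control livers. Only the highest control array, control 1, reached into the D3T range. The difference of 0.54 (SE 0.17, 95% interval 0.18 to 0.91) had an adjusted p of 0.0513 and so was not called. Without D3T 5 and OLT 1 it was 0.60 and called (adjusted p = 0.0487), after centring each array it was 0.69 and called (adjusted p = 0.00180), and over single arrays left out the adjusted p ran from 0.0284 to 0.115. It gave 0.16 in OLT livers (0.15 without those 2 arrays) and -0.29 in BNF livers, neither called (adjusted p = 0.608 and 0.475).

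**Figure D3:**
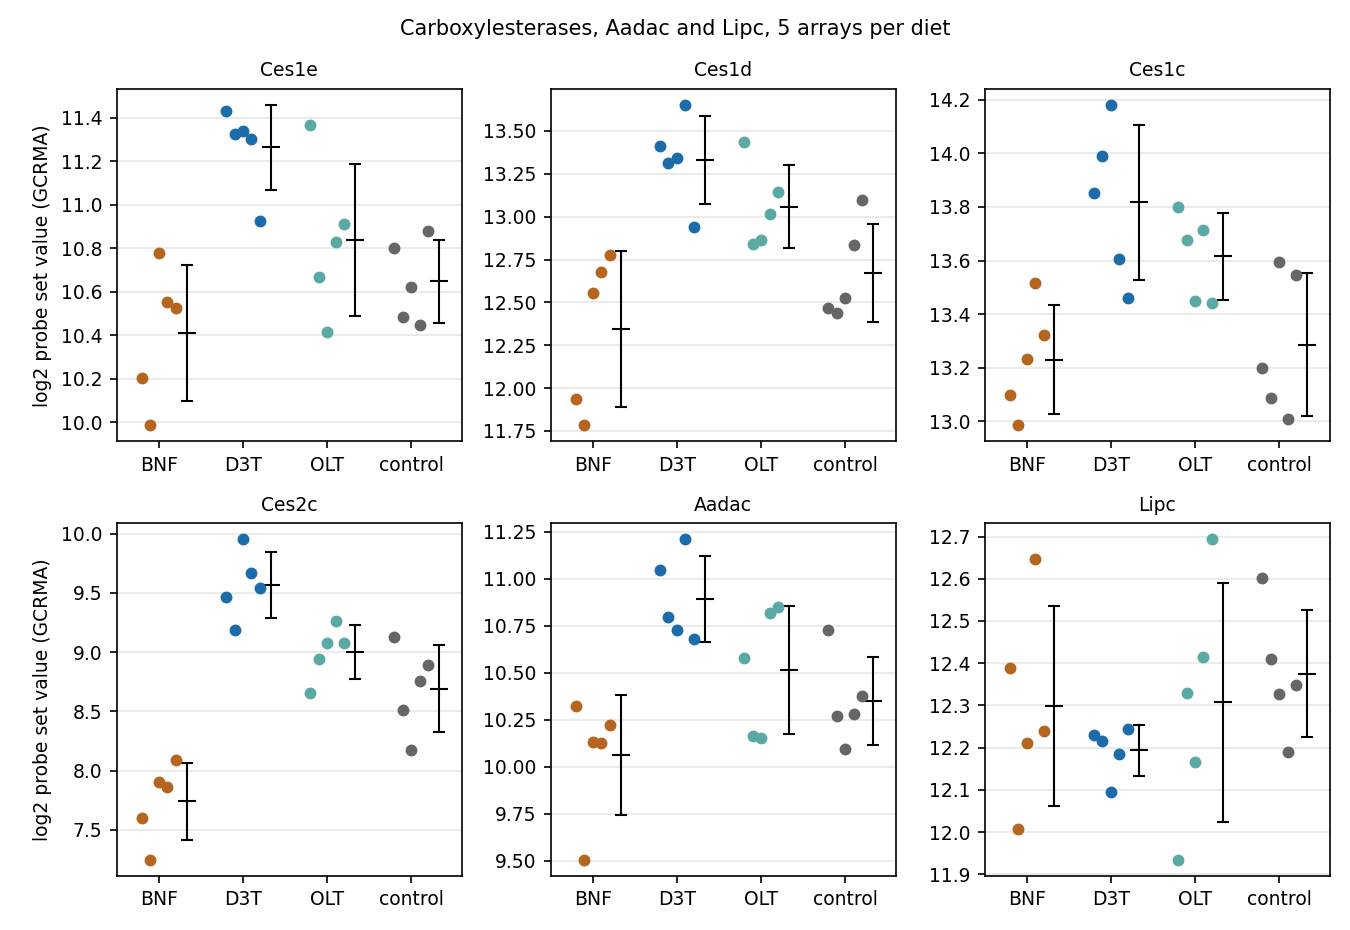
Log2 values of Ces1e, Ces1d, Ces1c, Ces2c, Aadac and Lipc by diet, 1 point per array with the mean and its SD beside the points (n = 5 arrays per diet; axes do not start at 0 and differ between panels). The D3T mean is the highest of the 4 for the carboxylesterases and Aadac, and the BNF arrays of Ces2c lie below all control arrays.

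Counted over the set, 3 of the 10 genes, Ces2c, Pnpla2 and Mgll, fell in BNF livers, where 2.02% of the 12947 kept probe sets were called lower and 1.46% higher (3.48% in all). Limma called 0 of the 10 higher, and 0 had an unadjusted p under 0.05 in that direction. The median difference of the 10 was -0.53, beside -0.05 over all kept probe sets, and all 10 estimates were below 0. The groups did not overlap for 4 genes, the called 3 and Aig1, and for 6.77% of kept probe sets. For D3T, 4 of the 8 genes that were tested rose and 1 fell, where 4.63% of kept probe sets were called higher and 6.97% lower (11.6% in all), with medians of 0.54 and -0.02. For OLT, 1 of the 8 fell, Pnpla2, and none rose, where 4.85% of kept probe sets were called lower and 1.53% higher (6.38% in all), and at an unadjusted p under 0.05 Ces1c was higher as well, with medians of 0.22 and -0.04. With D3T 5 and OLT 1 left out, the D3T counts were 5 higher and 1 lower, the OLT counts were the same, and 4 genes fell under BNF. In that fit 1711 of the 12947 kept probe sets were called in D3T, 594 in OLT and 555 in BNF, in either direction. The genes were chosen with results of these arrays known, so that these counts describe the set.

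**Figure D4:**
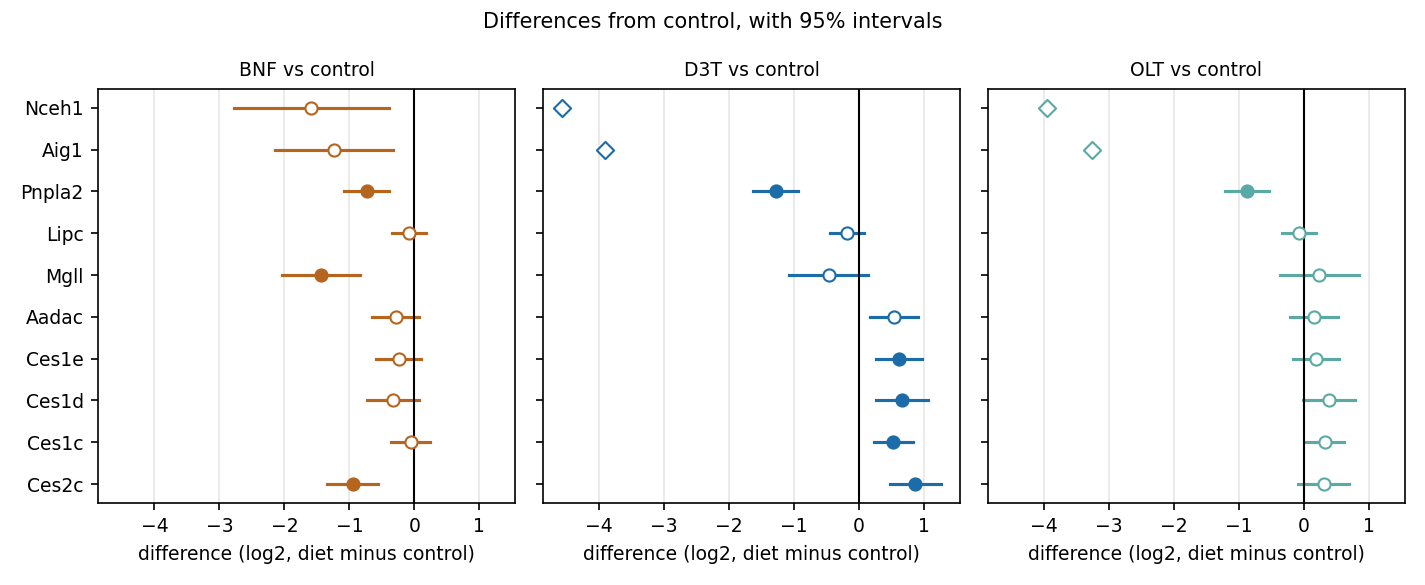
Difference from control on the log2 scale for the 10 genes in BNF, D3T and OLT livers, with 95% intervals from limma (n = 5 arrays per diet). Filled circles were called at an adjusted p under 0.05, open circles were not, and the diamonds for Nceh1 and Aig1 carry no test or interval because these genes were chosen for those differences.

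OLT and D3T differ in compound and in dose, 500 against 600 mg per kg of diet, and the effects of compound and dose cannot be told apart. Limma called none of the 8 genes other than Nceh1 and Aig1 between OLT and D3T, and 0 of the 12947 kept probe sets (0%). At an unadjusted p under 0.05 there were 5 genes of the 8 and 1385 probe sets, and the groups overlapped for all 10 genes and failed to for 0.981% of probe sets. Mgll gave the largest difference of the 8, 0.71 (95% interval 0.11 to 1.31, adjusted p = 0.374). The next was Ces2c, in the opposite direction, with -0.56 (-0.96 to -0.17, adjusted p = 0.278). Nceh1 and Aig1, chosen by their values in these arrays, stood 0.62 and 0.66 higher in OLT than in D3T livers, with no test. D3T 5 and OLT 1 each lay nearer to the opposite group of this comparison, so that leaving them out widens its differences by construction, and no call is drawn from the comparison without them.

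The proteins that act with these enzymes were followed in 3 lists. Of 30 genes of neutral lipid lipolysis 18 were measured, of which 1 rose and 1 fell in BNF livers, 3 rose and 3 fell in D3T livers, and 2 fell in OLT livers. The 3 that rose in D3T include Pnpla3, which passed the filter only through D3T arrays and OLT 1, so that this count is a description. Of all kept probe sets 1.46% rose and 2.02% fell in BNF, 4.63% and 6.97% in D3T, and 1.53% and 4.85% in OLT. The medians of the list were -0.22 in BNF, -0.02 in D3T and -0.15 in OLT, beside -0.05, -0.02 and -0.04 over all kept probe sets. G0s2, the inhibitor of adipose triglyceride lipase, fell in D3T and OLT livers, and gave -0.42 in BNF livers, which was not called (adjusted p = 0.461). It read 11.41, 11.27, 10.67, 11.12 and 11.64 in D3T livers and 11.24, 12.60, 11.87, 12.30 and 11.54 in OLT livers, against 13.42, 13.14, 12.96, 12.50 and 12.99 in control livers. No D3T array reached the control range, and 1 OLT array did. The differences were -1.78 (SE 0.25, adjusted p = 1.59e-04) and -1.09 (SE 0.25, adjusted p = 0.0124), and with array weights the OLT difference was -0.67 and not called (adjusted p = 0.0549). Leaving out D3T 5 and OLT 1 gave -1.89 and -0.93, both called. Abhd5, the co-activator of the same lipase, gave 0.19 in D3T, -0.22 in OLT and -0.19 in BNF livers, and was not called (adjusted p from 0.433 to 0.662).

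Cidec, a protein of the lipid droplet surface that lets droplets fuse, fell by 1.12 in D3T livers (SE 0.18, adjusted p = 6.18e-04) and by 0.81 in OLT livers (SE 0.18, adjusted p = 0.0122). It averaged 8.55 ± 0.24 in D3T and 8.87 ± 0.07 in OLT livers, against 9.67 ± 0.25 in control livers (SD, n = 5 each). After centring each array the OLT difference was -0.64 and not called (adjusted p = 0.0536), and without D3T 5 and OLT 1 both diets were called, at -1.19 and -0.78. Plin2, which coats lipid droplets, gave -0.94 in BNF livers (adjusted p = 0.0224) and -0.71 in D3T livers (adjusted p = 0.0446). The BNF call ended without any one of the arrays numbered 1 to 3 of either group (adjusted p from 0.0522 to 0.0666) and with the mean of its probe sets (adjusted p = 0.0956), and the D3T call in 13 of the 20 fits that left out an array (adjusted p up to 0.104). Cidec and Plin2 in D3T were named after their values were seen. The phospholipase gene Ddhd1 rose by 2.15 in D3T livers (SE 0.38, adjusted p = 0.00117) and by 1.53 in BNF livers (adjusted p = 0.0303). The BNF call of Ddhd1 ended without any one of the arrays numbered 2, 4 or 5 of either group (adjusted p from 0.0568 to 0.0948), and with no filter (adjusted p = 0.0679). In D3T livers Ddhd1 and Plin2 gave 1.85 and -0.73 without D3T 5 and OLT 1, both called.

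Pnpla3, a lipid droplet protein related to adipose triglyceride lipase, read 8.66, 9.34, 4.08, 5.63 and 3.52 in D3T livers, against 3.34, 3.44, 3.48, 3.54 and 3.44 in control livers, all of which lie near background. D3T 1 and D3T 2 were far above the rest, and D3T 5 lay within the control range. The difference was 2.80 (SE 0.81, adjusted p = 0.0303), and its size rests on the background level. It was not called without control 1, control 2, control 4, control 5, D3T 1 or D3T 2 (adjusted p from 0.0541 to 0.0801). Nor was it called in a fit of D3T and control arrays alone (adjusted p = 0.120) or with no filter (adjusted p = 0.0715). Without D3T 5 and OLT 1 it was 3.48 and called (adjusted p = 0.00352). The probe set passed the filter only through D3T 1, D3T 2, D3T 3, D3T 4 and OLT 1, so that its D3T call is a description. Angptl4, a secreted inhibitor of lipoprotein lipase, read 10.25, 10.24, 10.83, 9.78 and 8.89 in D3T livers, against 7.89, 7.93, 8.40, 7.32 and 7.996 in control livers. All D3T arrays lay above all control arrays, and the difference was 2.09 (SE 0.37, adjusted p = 0.00114), or 2.37 without D3T 5 and OLT 1. It gave -0.92 in BNF livers and 0.95 in OLT livers, neither called (adjusted p = 0.202 and 0.130).

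Of 24 listed carboxylesterases and related ester hydrolases beyond the 10 genes only 7 were measured, and none of them was another Ces gene. A probe set annotated to both Ces1f and a second carboxylesterase gene, Cesl1, was left unnamed. Lcat, which esterifies cholesterol in plasma lipoproteins, averaged 12.92 ± 0.26 in D3T and 13.15 ± 0.30 in OLT livers, against 13.63 ± 0.08 in control livers (SD, n = 5 each). It fell by 0.70 in D3T livers (SE 0.13, adjusted p = 0.00163) and by 0.47 in OLT livers (SE 0.13, adjusted p = 0.0344). The OLT call ended without any one control array or without OLT 1, OLT 2 or OLT 3 (adjusted p from 0.0518 to 0.0928), and after centring each array (adjusted p = 0.146). Both calls held without D3T 5 and OLT 1, at -0.81 and -0.38. Adtrp, the closest relative of Aig1 and a hydrolase of the same lipids, read 11.71, 11.52, 11.81, 11.82 and 11.89 in BNF livers, against 12.43, 12.45, 12.44, 12.32 and 12.51 in control livers. It fell by 0.68 there (SE 0.11, adjusted p = 0.00164), while under D3T and OLT it gave -0.33 and -0.32 and was not called (adjusted p = 0.0673 and 0.0963). Without D3T 5 and OLT 1 the D3T difference was -0.39 and called (adjusted p = 0.0119).

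The paraoxonases Pon1 and Pon3 are ester hydrolases carried on high-density lipoprotein. Pon1 and Pon3 rose in BNF livers by 0.36 (SE 0.06, adjusted p = 9.74e-04) and 0.60 (SE 0.10, adjusted p = 0.00135). Pon3 rose by 0.37 in D3T livers (adjusted p = 0.0192), a call that ended without control 2, control 4, D3T 2 or D3T 3 (adjusted p from 0.0521 to 0.0607) and in a fit of D3T and control arrays alone (adjusted p = 0.0631). Pon1 rose by 0.24 in OLT livers (adjusted p = 0.0164), which was not called in a fit of OLT and control arrays alone (adjusted p = 0.0761). With the mean of its probe sets this was 0.15 and not called (adjusted p = 0.170), nor was it called with no intensity trend (adjusted p = 0.0585). Pon3 in D3T at 0.36 and Pon1 in OLT at 0.26 were both called without D3T 5 and OLT 1. Pon2, the third measured paraoxonase, did not rise: it gave -0.002 in BNF, -0.24 in D3T and -0.26 in OLT livers. None of these differences was called by limma (adjusted p = 0.999, 0.184 and 0.181). Over the 7 measured genes of this list 2 rose and 1 fell in BNF, beside 1.46% and 2.02% of kept probe sets. In D3T 1 rose and 1 fell, beside 4.63% and 6.97%, and in OLT 1 rose and 1 fell, beside 1.53% and 4.85%. The medians were -0.03 in BNF, -0.28 in D3T and -0.13 in OLT.

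**Figure D5:**
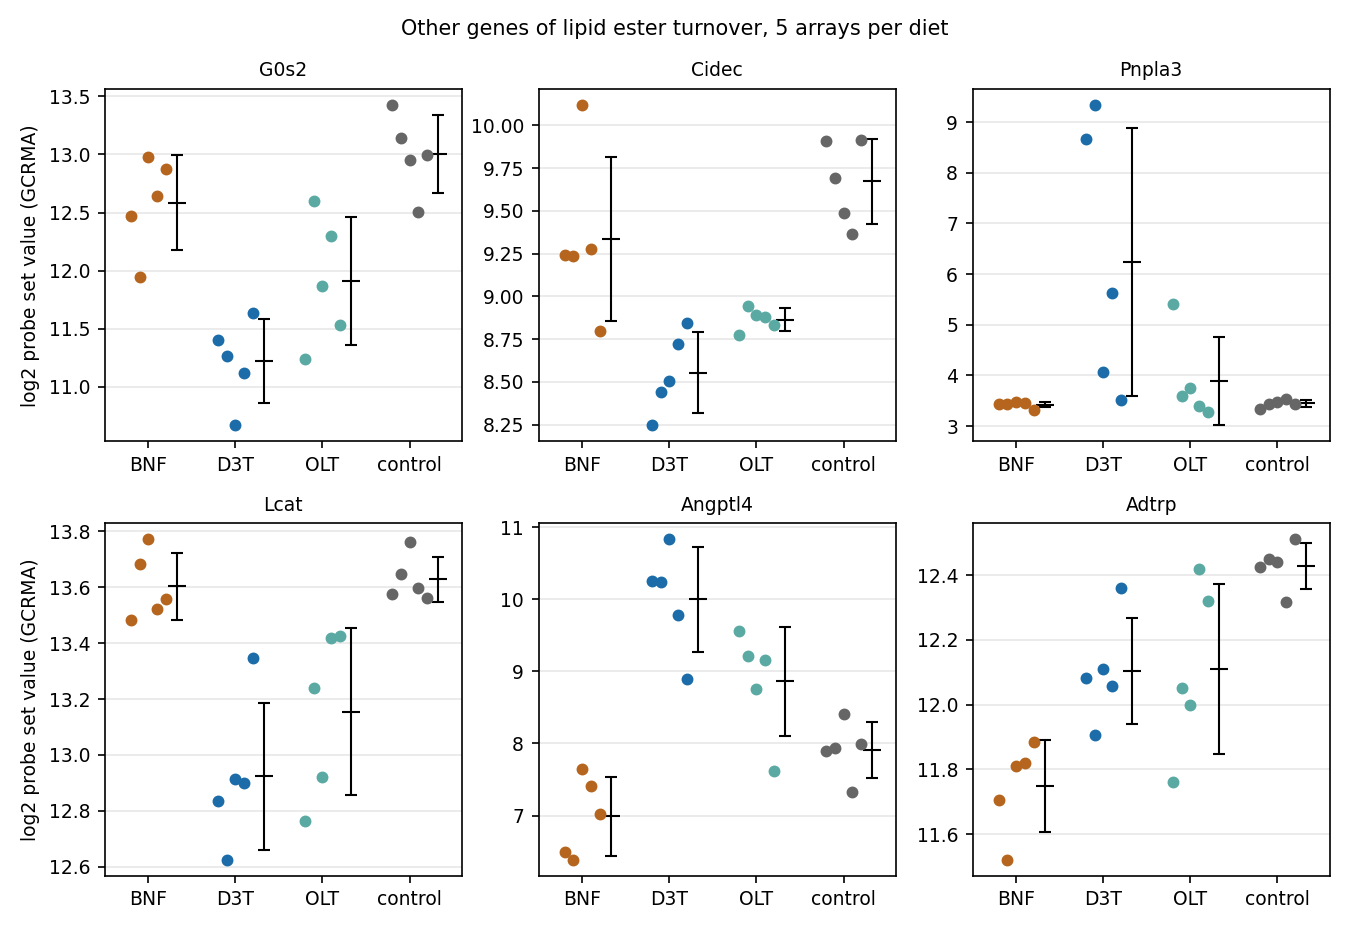
Log2 values of G0s2, Cidec, Pnpla3, Lcat, Angptl4 and Adtrp by diet, 1 point per array with the mean and its SD beside the points (n = 5 arrays per diet; axes do not start at 0 and differ between panels). For G0s2, Cidec and Lcat the D3T arrays lie below all control arrays, and the Adtrp values in BNF lie between 11.52 and 11.89, below all control arrays.

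Among the enzymes that make neutral lipid esters, 17 of 22 listed genes were measured and 1 fell, Agpat3, an acyltransferase of phosphatidic acid synthesis, by 0.92 in D3T livers (SE 0.18, adjusted p = 0.00324). With the mean of its probe sets this was -0.69 and not called (adjusted p = 0.0557). Without D3T 5 and OLT 1 it was -1.03 and called. That is 1 gene of 17 lower in D3T, near the 6.97% of all kept probe sets. Limma called 0 of the 17 in BNF and 0 in OLT livers, where 5 and 5 had an unadjusted p under 0.05, as did 2055 and 2875 of all 12947. The medians were -0.24 in BNF, -0.02 in D3T and -0.09 in OLT.

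Markers of other cell types also differed between the diets. The mean log2 level of 14 measured macrophage and Kupffer cell markers was 8.003 to 9.07 in BNF livers, 6.88 to 8.02 in D3T livers and 6.54 to 8.08 in OLT livers, against 7.32 to 7.97 in control livers. Of these 14, 2 rose in BNF (Tyrobp and Laptm5, beside 1.46% of all kept probe sets), and 1, Cd163, fell in OLT (beside 4.85%). At an unadjusted p under 0.05, 11 of the 14 were higher and 0 lower in BNF, as were 2055 of all 12947 kept probe sets in either direction. The median difference of the 14 in BNF was 0.96, beside -0.05 over all kept probe sets. For 10 stellate cell and endothelial markers the mean level was 7.14 to 8.01 in BNF, 6.20 to 7.43 in D3T and 6.25 to 7.22 in OLT livers, against 6.23 to 7.39 in control livers. Of these 10, 4 rose in BNF (beside 1.46%), among them the collagen genes Col1a1, Col1a2 and Col3a1. Dcn, another of the 10, would not have passed the filter without the BNF arrays, so that the BNF count is a description. In D3T 1 of the 10, Acta2, fell (beside 6.97%). The adipocyte marker Cfd, 1 of 2 measured, fell by 1.33 in OLT livers (adjusted p = 0.0481, beside 4.85%), where its mean of 2.99 lay near background. The other, Pck1, averaged 13.80 in OLT and 13.40 in control livers and was not called. The pancreatic acinar marker Cpa1, 1 of 4 measured acinar markers, gave -2.40 in BNF livers (adjusted p = 0.0112, beside 2.02%). Cela1 went the other way, with 6.35 in BNF and 5.68 in control livers, and was not called. At an unadjusted p under 0.05, 1 marker was higher and 1 lower in each of these 2 comparisons. Of the 11 measured hepatocyte markers 1, Apoa1, rose in BNF (beside 1.46%), and limma called 0 in D3T and 0 in OLT. At an unadjusted p under 0.05, 4 were higher and 1 lower in D3T, and 5 were higher and 0 lower in OLT. Of all 12947 kept probe sets, 3355 in D3T and 2875 in OLT had such a p in either direction. These marker genes were named after their values were seen, and the part of these shifts in the values of the 10 genes was not tested.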

How the data were processed

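Liver RNA of 20 rats was measured on 1-colour Affymetrix arrays. The deposited values are log2 probe set summaries that the authors made with GCRMA, per the submitters' processing notes, between 0.083 and 16.46; the version, scan dates and detection calls are not given in the sources used here. Array medians over kept probe sets lay between 6.92 and 7.47, and the number of arrays limits the precision.

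The 12947 probe sets above log2 4 in at least 5 arrays were tested with limma 3.58.1 in R 4.3.3 (lmFit and eBayes with an intensity trend, all 20 arrays, 1 mean per diet, two-sided). A call is a Benjamini-Hochberg adjusted p under 0.05 over all kept probe sets, and a p is from this fit unless the sentence names another setting. The standard error (SE) and 95% interval of a difference use limma's moderated variance. Where a gene had several kept probe sets, the one of highest mean stands for it. Symbols come from the platform annotation, updated by gene identifier through the RefSeq table, as do promoter sequences (GRCr8). Named are all 10 genes, up to 4 called genes per list and comparison with the largest difference, co-factors and relatives of the 10, and the 3 genes nearest to Nceh1 and to Aig1. Pon2 and some cell type markers are named beside them. The genes and lists were chosen with earlier results of these data known. The fit was tested on simulated data. Deviations of same-numbered arrays correlated from -0.27 to 0.30, with a median of 0.057, against -0.031 for differently numbered pairs. Replicate numbers were not used as a block in the main fit, and a fit with the block is given below. Protein sequences were not used here.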

Additional observations from a re-analysis of the deposited data

Results flagged for a closer look

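Single arrays stood apart from the other 4 of their diet in 7 of the 100 groups of 5 examined (25 probe sets in 4 diets), by a gap over 0.71 of the group's range; chance gives about 1 in 20. Aadac read 9.51 in the array labelled BNF 2, against 10.13 to 10.32 in the other BNF arrays. Ces1e read 10.93 in D3T 5, against 11.30 to 11.43 in the other D3T arrays, and this array resembled the OLT group across probe sets. The Mgll probe set near background read 4.78 in D3T 2 and 4.49 in OLT 1, where the others of each diet lay between 4.07 and 4.13. The second Mgll probe set read 8.91 in control 1, against 8.35 to 8.49 in the other controls. Pnpla3 read 5.41 in OLT 1, against 3.27 to 3.76 in the other OLT arrays, and 3.33 in BNF 5, against 3.43 to 3.47, the second of these at background.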

How the results depend on the processing

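Array weights raised the genes of the set called lower in BNF to 5, against 3, and gave 1 called higher in OLT, against 0. Without a filter 2 rose in D3T, against 4, and with D3T 5 and OLT 1 both left out 1 was lower in OLT than in D3T, against 0. Leaving out these 2 arrays widens the OLT and D3T differences by construction, so that nothing is drawn from that last count. Leaving out 1 array at a time gave 1 to 5 genes called higher in D3T. Centring each array on its median moved the median difference of all kept probe sets to 0.12 in D3T, against -0.02, and to 0.13 in OLT, against -0.04. It put the share of higher calls at 57.7% in BNF, 63.1% in D3T and 56.1% in OLT, and quantile normalization at 53.9%, 50.1% and 43.9%, against 42.0%, 39.9% and 24.0%. Over all kept probe sets, calls higher in BNF were 189, and 289 after centring, 312 after quantile normalization and 630 with array weights; lower were 261, and 172 without a filter and 850 with weights. For D3T, higher calls were 599, and 1227, 939 and 1372 in the same order; lower calls were 903, and 563 without a filter and 1513 with weights. For OLT, higher calls were 198, and 635, 505 and 822, with 92 without a filter and 81 with only the groups compared; lower calls were 628, and 365, 1232 and 301 without a filter, with weights and with only the groups compared. Between OLT and D3T, 34 were higher and 78 lower with weights, and 229 and 320 without D3T 5 and OLT 1, against 0 and 0, a rise that follows from leaving out the arrays nearest to the opposite group. With 1 array left out the ranges were 110 to 217 higher and 153 to 295 lower in BNF (past 1.5 times without control 2, control 4, control 5, BNF 1 or BNF 2), 404 to 672 and 562 to 1001 in D3T (without control 5 or D3T 3), 96 to 240 and 384 to 1070 in OLT (without control 1, control 2, control 4, control 5, OLT 1, OLT 2, OLT 3 or OLT 5), and 0 to 97 and 0 to 139 between OLT and D3T (calls appeared without D3T 4, D3T 5 or OLT 1). No difference of a gene in the set that was called changed sign under any of these settings. The replicate block changed 1 call of a gene in the set, Aadac in D3T, which became called at a difference of 0.54 (adjusted p = 0.0200). Of the listed genes it added Adtrp (adjusted p = 0.0428) and ended Plin2 (adjusted p = 0.0667), both in D3T. Of 30 same-numbered pairs of arrays, 11 had correlated deviations over 0.1. Their median was 0.057, against -0.031 for differently numbered pairs. Whether the numbers pair the arrays cannot be told from these values. Where a value moved, the cause was not tested.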
